A study of Mus musculus with 17 samples.

Results

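Immortalized mouse embryonic fibroblasts with no intact Usp28 allele (-/-) were compared with cells that keep 1 allele (+/-), by RNA sequencing of poly(A) RNA. The comparison used 6 of the 17 libraries of the series, 3 per genotype, described by the submitters as biological triplicates. The cells came from E13.5 C57BL/6 embryos, and both genotypes carried the same retroviral short hairpin RNA against p19ARF, the tumour suppressor whose loss lets mouse fibroblasts divide without limit. Neither genotype received Ras or a Usp28 vector. The labels do not state how many embryos or separate lines each genotype came from. Of 37576 gene IDs, 17007 had a mean level of at least 1 RPM (reads per 1000000 reads) over both genotypes and were tested.

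Usp28 is a deubiquitinase, an enzyme that removes ubiquitin chains from other proteins. It is known for acting against Fbw7 (gene Fbxw7), the subunit of an SCF ubiquitin ligase that marks Myc, Jun, cyclin E and Notch for destruction. These effects are on proteins, whereas the values below are of RNA. Fibroblast cultures from whole embryos are mixtures of mesenchymal cells from limb, body wall and skin, and other cell types can persist in them.

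The deposited tables hold each group only through its comparison with wild-type (+/+) cells, with no value for a single library. Levels are therefore group values, and the standard error (SE) of a log2 difference is implied by the read counts and by a single dispersion per comparison, not by the spread measured for that gene. A gene is called when its approximate Wald test gave an adjusted p (Benjamini-Hochberg over all 17007 genes) under 0.05. Log2 differences are of -/- over +/- with 0.5 reads added to each group. A gene with the median SE of 0.47 needed a log2 difference of 1.44 to be called, so changes under about that size could not be called. The summed depth was 11.38 M reads (M, 1000000) in -/- and 12.42 M in +/-. The coefficient of variation between libraries implied by the deposited p-values was 21.2% in the comparison of -/- with +/+ and 32.4% in that of +/- with +/+.

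Usp28 (ENSMUSG00000032267, chromosome 9, 48985375 to 49042517, plus strand, GRCm38) had 13.3 RPM in the cells labelled -/-, 9.96 RPM in +/- and 16.5 RPM in +/+. The log2 difference was 0.41 (SE 0.49, adjusted p = 1), so the transcript does not separate the 2 genotypes and does not check their labels. Directions below rest on the labels. Fbxw7 had 24.4 and 24.0 RPM in -/- and +/-, and the related deubiquitinase Usp25 had 38.8 and 46.3 RPM, and neither was called. The fibroblast label was met by the RNA. Col1a1 and Col1a2, the chains of type I collagen, had 14627 and 6034 RPM in -/- and 17267 and 5570 RPM in +/-, and the intermediate filament gene Vim had 4676 and 4222 RPM. Of 13 fibroblast markers tested, Cd34 was the only one called (6.61 RPM in -/-, 60.0 RPM in +/-). That is 7.69% called lower, beside 3.3% of all genes tested.

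In all, 794 genes (4.67% of those tested) were called. Of these, 233 (1.37%) were higher in -/- and 561 (3.3%) were lower. The lower genes also moved further: 432 of them differed at least 4-fold and 116 at least 16-fold, against 111 and 20 of the higher genes. The median log2 difference over all genes tested was 0.06. With each group given only the dispersion of its own comparison 1476 genes were called, and with the dispersion doubled 377, so the counts rest on that choice. The +/+ level, which the difference does not use, was nearer to -/- than to +/- for 90.6% of the genes called higher and 86.6% of those called lower, against 55% of all genes tested. It lay between the 2 groups for 138 of the 233 higher genes and 276 of the 561 lower ones, and beyond the -/- level for 92 and 279. The larger implied variation of the +/- comparison stands beside these counts, and its part in them was not tested.

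**Figure D1:**
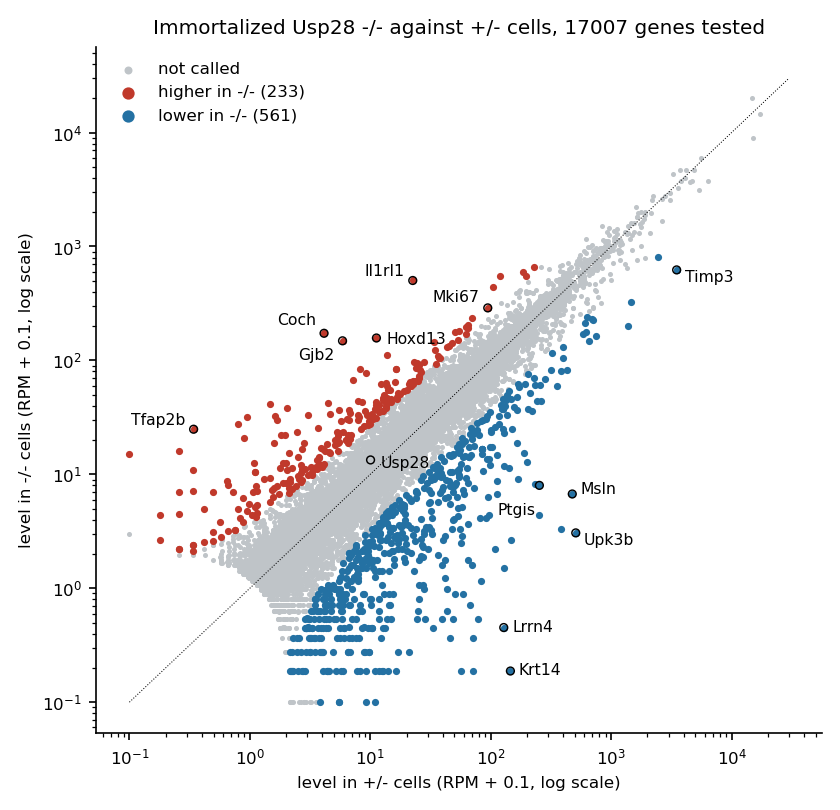
Level of each of the 17007 genes tested in +/- cells (x axis) and in -/- cells (y axis), both in RPM plus 0.1 on log scales. Red points are the 233 genes called higher in -/- and blue points the 561 called lower, grey points were not called, circles mark named genes and the dotted line marks equal levels. The blue cloud reaches further from the line than the red one, down to Krt14 at a single read in -/-.

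Among called genes with a mean level of 10 RPM or more, Coch was one of the 12 with the largest higher differences (ENSMUSG00000020953, chromosome 12, 51593341 to 51605771). It encodes the secreted protein cochlin. It had 173 RPM in -/-, 4.03 RPM in +/- and 90.5 RPM in +/+, a log2 difference of 5.41 (SE 0.50, adjusted p = 7.12e-24). Il1rl1, the receptor for interleukin 33, had 503 RPM in -/- and 22.4 RPM in +/- (4.48, SE 0.46, adjusted p = 6.19e-19). Its ligand gene Il33 lay the other way, at 1 read in -/- (0.088 RPM) against 9.14 RPM in +/-, a log2 difference of -6.12 whose counting interval at 95% ran from -12.0 to -4.19. The gap junction gene Gjb2 had 149 RPM in -/- and 5.78 RPM in +/- (4.67, SE 0.49). A second connexin gene, Gja1, went from 184 RPM in +/- to 600 RPM in -/- (1.70, SE 0.46, adjusted p = 0.00653). Tfap2b, a transcription factor of neural crest and skin, had 24.8 RPM in -/- and 3 reads (0.241 RPM) in +/-, a log2 difference of 6.46 with a counting interval from 5.12 to 8.97. The other genes among these 12 were Hpgd, Lrrtm3, Tnn, Fabp4, Ppbp, Thbs4, Runx3 and Hoxd13, with log2 differences from 3.81 to 5.23. Some called genes under 10 RPM differed by more. Of the called genes with most reads, the water channel gene Aqp1 had 443 RPM in -/- and 104 RPM in +/-, and Lrrc32, a surface protein that holds latent TGF-beta, had 664 and 229 RPM.

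The lower gene with the largest log2 difference was Krt14 (ENSMUSG00000045545, chromosome 11, 100203162 to 100207548), a keratin of basal epidermis. It had 146 RPM in +/- and 1 read (0.0878 RPM) in -/-, and 0.163 RPM in +/+. The log2 difference was -10.11 with a counting interval from -16.0 to -8.21. Olr1, a scavenger receptor, had 71.4 RPM in +/- and 1 read in -/-. Aldh1a1, an enzyme that makes retinoic acid, had 78.7 RPM in +/- and 0.442 RPM in -/- (-7.34, SE 0.77). At a mean level of 10 RPM or more, the remaining genes among the 12 largest were Gpm6a, Lrrn4, Krt8, Upk3b, Pkhd1l1, Upk1b, Akap5, Nlrp4e and Krt16. Their log2 differences ran from -8.74 to -6.57. Several of these are markers of mesothelium and simple epithelium and are taken up below.

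Among genes of mitosis, 16 of 68 tested were called higher in -/- and none lower. Cells enter mitosis when the complex of cyclin B and its kinase becomes active, and polo-like and Aurora kinases build the spindle. The kinetochore couples chromosomes to the spindle, and Cdc20 switches on the anaphase promoting complex, which destroys cyclin B. The promoters of such genes are known for CCAAT boxes, bound by NF-Y, and for the cell cycle homology region (CHR), with the core TTTGAA or TTCGAA, through which the DREAM and B-Myb complexes act. The 68 genes come from 4 lists. The share called higher was 23.5%, beside 1.37% of all genes tested, and no member had a negative log2 difference. Their median was 1.26, beside 0.06 over all genes, and the range ran from 0.00 for Anapc1 to 1.89 for Nuf2. In 65 of the 68 the +/+ level lay between those of -/- and +/-. The calls lie close to the threshold: with the dispersion doubled none of the 68 was called, at an adjusted p under 0.01 there were 3, and with each comparison's own dispersion there were 53.

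The promoters of 5 of the called genes are shown because each holds both elements close together. They were picked for that: of 16 matched promoters of the called genes 10 held both elements in 300 bases around the start, and those of Birc5, Melk and Nuf2 held neither. Each runs from 130 bases before the RefSeq transcription start to 20 bases from it (GRCm38.p6), 5′ to 3′ in the gene's direction, with CCAAT boxes (ATTGG on the other strand) and CHR cores in capitals.
Ccnb2, chr9:70421535-70421684, minus strand: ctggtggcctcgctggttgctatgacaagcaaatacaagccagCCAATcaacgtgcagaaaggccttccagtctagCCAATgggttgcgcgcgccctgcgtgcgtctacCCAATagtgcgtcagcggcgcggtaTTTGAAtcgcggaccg
Cdc20, chr4:118437324-118437473, minus strand: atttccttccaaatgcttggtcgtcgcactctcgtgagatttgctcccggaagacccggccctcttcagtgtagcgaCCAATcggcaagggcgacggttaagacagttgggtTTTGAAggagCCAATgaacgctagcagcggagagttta
Hmmr, chr11:40733418-40733567, minus strand: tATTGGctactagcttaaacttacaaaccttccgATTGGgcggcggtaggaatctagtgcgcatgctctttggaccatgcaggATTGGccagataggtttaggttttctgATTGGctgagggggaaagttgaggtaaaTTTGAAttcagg
Kif23, chr9:61946780-61946929, minus strand: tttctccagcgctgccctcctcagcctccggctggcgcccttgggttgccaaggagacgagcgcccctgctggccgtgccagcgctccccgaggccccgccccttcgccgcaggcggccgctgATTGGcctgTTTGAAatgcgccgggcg
Prc1, chr7:80294321-80294470, plus strand: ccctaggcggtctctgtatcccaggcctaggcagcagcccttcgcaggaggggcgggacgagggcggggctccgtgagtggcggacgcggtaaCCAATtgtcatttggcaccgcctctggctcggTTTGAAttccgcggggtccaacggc

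These 5 stretches differ in the number of CCAAT boxes, from 1 in Kif23 and Prc1 to 4 in Hmmr, and each holds 1 CHR core. RefSeq promoters were matched for 58 of the 68 mitosis genes (62 promoters, since some genes have more than 1 start). In windows of 300 bases around the start, TTTGAA or TTCGAA on either strand was present in 44 of the 62 (71.0%), beside 19.2% of all 32851 promoters. In only the 100 bases before the start it was present in 21%, beside 6.13%. In the longer window CCAAT was present in 67.7% beside 37.4%, and both in 56.5% beside 7.53%. In that window 11 of the 16 matched promoters of the called genes held a CHR core (68.8%), near the share of the whole list. The shares thus describe the list as chosen and do not set called members apart from the others. These motifs do not overlap each other in sequence, and a match is a string of letters and not a measured binding site. In the promoters of DNA replication genes the CHR core was present in 10 of 41 (24.4%).

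Among cyclins and kinases of G2 and M phase, 6 of 15 were called. Ccnb1, cyclin B1, had 55.3 RPM in -/- against 19.9 RPM in +/- (1.47, SE 0.47, adjusted p = 0.0384), with 35.2 RPM in +/+. Ccnb2, cyclin B2, had 66.0 against 22.4 RPM (1.56, SE 0.47, adjusted p = 0.0218). Plk1, the polo-like kinase, had 133 against 45.2 RPM (1.55, SE 0.46, adjusted p = 0.0202). Nek2, Pbk and Melk, kinases that peak in the same phases, differed by 1.60, 1.52 and 1.50 on the log2 scale. Cdc20 was the single called member of 11 in the anaphase promoting complex list, at 151 against 53 RPM (1.51, SE 0.46, adjusted p = 0.0255), and constitutive subunits of the complex such as Anapc1, with 238 and 237 RPM, lay at the low end of the range.

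Of 28 genes of the kinetochore, spindle and mitotic motors, 7 were called. Nuf2, a subunit of the Ndc80 complex that binds microtubules, had 47.1 RPM in -/- and 12.7 RPM in +/- (1.89, SE 0.47, adjusted p = 0.00271). Birc5, survivin of the chromosomal passenger complex, had 82.5 against 25.6 RPM (1.68, SE 0.47, adjusted p = 0.00925). Cenpf, Ckap2, Kif2c, Hmmr and Kif23 differed by 1.46 to 1.58. In the list for condensation and cytokinesis 2 of 14 were called. Prc1, which bundles the central spindle, had 195 against 61.8 RPM (1.66, SE 0.46, adjusted p = 0.00954), and Mki67, a coat protein of mitotic chromosomes and a marker of dividing cells, had 289 against 94.5 RPM (1.61, SE 0.46, adjusted p = 0.0127).

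**Figure D2:**
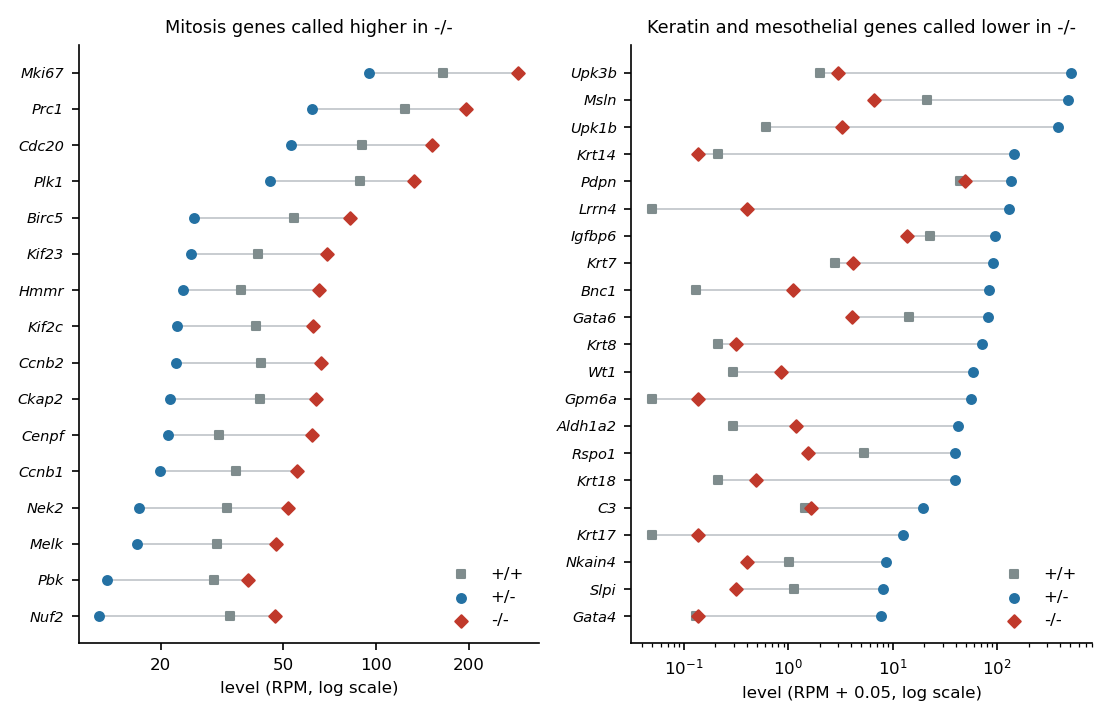
Group levels of the 16 mitosis genes called higher in -/- (left, RPM on a log scale) and of the 21 keratin and mesothelial genes called lower (right, RPM plus 0.05 on a log scale), for +/+ (grey squares), +/- (blue circles) and -/- (red diamonds). On the left the +/+ level of each gene lies between the others, and on the right the +/- level is the highest for each gene.

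Of 39 DNA replication genes, which E2F factors switch on before S phase, none was called. Their median was 0.61, with 36 positive values and 5 members at an unadjusted p under 0.05. Tk1, thymidine kinase, had 101 RPM in -/- and 48.2 RPM in +/- (1.07, SE 0.46, adjusted p = 0.25). Of 36 growth genes under Myc, such as ribosome assembly factors, none was called and none was at an unadjusted p under 0.05, with a median of 0.29 and the largest value at the transferrin receptor gene Tfrc (0.68, SE 0.46).

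Of 23 genes of cholesterol synthesis and uptake 1 was called, higher in -/- (4.35%, beside 1.37% of all genes tested). The promoters of such genes are read by SREBP factors when cells lack sterols. Idi1, which isomerizes the isoprenoid building block of sterols, had 55.1 RPM in -/-, 13.9 RPM in +/- and 36.7 RPM in +/+ (1.98, SE 0.47, adjusted p = 0.00124). In the list 22 genes had a positive log2 difference, with a median of 1.11, and 13 were at an unadjusted p under 0.05. Of 14 fatty acid synthesis genes Elovl6, an elongase, was called higher (7.14%, beside 1.37% of all genes). It had 73.5 against 25.2 RPM (1.54, SE 0.47, adjusted p = 0.0238). Promoters were matched for 15 of the 23 cholesterol genes (18 promoters). CCAAT was in 14 of the 18 (77.8%), beside 37.4% of all promoters, 67.7% of mitosis promoters and 56.1% of DNA replication promoters. The sterol element TCACNCCAC was in none of the 18, beside 1.24% of all promoters. With an element this rare, absence from 18 promoters says little.

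Genes of the Fbw7 pathway were called about as often as all genes. None of 10 genes of Usp28 and the SCF ligase was called (none at an unadjusted p under 0.05), and their log2 differences ran from -0.25 to 0.41. Of 27 Fbw7 substrate genes 1 was called, lower (3.7%, beside 3.3% of all genes): Mycn, a Myc family transcription factor, had 14.8 RPM in +/- and 0.44 RPM in -/- (-4.94, SE 0.77, adjusted p = 2.93e-08). Myc itself had 104 RPM in -/- and 117 RPM in +/- (-0.18), and Jun had 259 and 145 RPM (0.83, SE 0.46). Notch1, also a substrate, had 56.4 against 25 RPM (1.17, SE 0.47, adjusted p = 0.169). No gene of 13 Notch receptors, ligands and targets was called, and 3 were at an unadjusted p under 0.05, with Hey1, a Notch target, furthest at 3.70 against 1.03 RPM (1.81, SE 0.64, adjusted p = 0.0892). Among 28 p53 targets 2 were called, both lower in -/- (7.14%, beside 3.3% of all genes). They were the stress cytokine gene Gdf15 (3.62 against 11.6 RPM) and the junction gene Perp (24.4 against 77.2 RPM, -1.66, SE 0.47). Cdkn2a, the gene of p19ARF that the hairpin targets in both genotypes, had 117 RPM in -/- and 221 RPM in +/- (-0.91, SE 0.46, adjusted p = 0.45) and was not called.

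Mesothelial genes were lower in -/-. The mesothelium is the sheet of cells that lines the body cavities and covers the organs, and it expresses keratins together with mesenchymal genes. Of 19 mesothelial genes tested, 16 were called lower and 1 higher, beside 3.3% and 1.37% of all genes, with a median log2 difference of -4.71. Summed over the whole list of 24 genes in the table, the level was 148 RPM in -/-, 2199 RPM in +/- and 177 RPM in +/+. In bulk RNA, fewer cells of a type and less RNA per cell cannot be told apart.

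Upk3b (ENSMUSG00000042985, chromosome 5, 136038496 to 136046487), a membrane protein of urothelium and mesothelium, had 2.96 RPM in -/-, 508 RPM in +/- and 1.95 RPM in +/+ (-7.40, SE 0.52, adjusted p = 5.61e-42). Msln, mesothelin, a surface protein that defines the type, had 6.62 RPM in -/-, 476 RPM in +/- and 21.1 RPM in +/+ (-6.16, SE 0.49, adjusted p = 4.11e-33). Lrrn4 had 0.352 RPM in -/-, 128 RPM in +/- and no read in +/+ (-8.34, SE 0.82). Among the transcription factors of the lineage, Wt1 had 0.797 against 58.3 RPM (-6.12, SE 0.65), Bnc1 1.05 against 82.8 RPM (-6.24, SE 0.61) and Gata6 4.01 against 82.1 RPM (-4.34, SE 0.50). Bnc2, a relative of Bnc1 that skin fibroblasts also express, was the exception, at 30.4 RPM in -/- and 10.4 RPM in +/- (1.55, SE 0.48, adjusted p = 0.0297). Of the listed mesothelial genes, 6 of the 19 tested also stand in other lists, and Calb2 was near 0 in all 3 genotypes.

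Keratins, the intermediate filaments of epithelia, were lower in the same direction: 5 of 8 tested were called lower (62.5%, beside 3.3% of all genes) and none higher. Krt8 and Krt18, the pair of simple epithelia, had 0.265 and 0.44 RPM in -/- against 71.8 and 39.0 RPM in +/-. Krt7 had 4.08 against 91.2 RPM (-4.47, SE 0.50). Krt17 had 1 read in -/- against 12.4 RPM in +/-. Krt19, also a keratin of simple epithelia, was not called, at 67.0 RPM in -/-, 94.8 RPM in +/- and 44.9 RPM in +/+ (-0.50).

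Of 18 epithelial junction and surface genes tested, 8 were called lower (44.4%, beside 3.3% of all genes) and none higher. Of these, Upk1b and Upk3b are also counted among the mesothelial genes and Perp among the p53 targets. Epcam, a defining marker of epithelium, had 0.263 and 0.242 RPM, and Cldn6 and Ocln had no read in either genotype. Cdh1, E-cadherin, had 0.44 RPM in -/- and 5.73 RPM in +/- (-3.58, SE 0.78, adjusted p = 0.000292). Cdh3, P-cadherin, had 70.6 RPM in -/-, 230 RPM in +/- and 156 RPM in +/+ (-1.70, SE 0.46). Itgb4, the hemidesmosome integrin, had 1.76 against 19 RPM and Dsp, desmoplakin, 2.73 against 13.9 RPM.

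**Figure D3:**
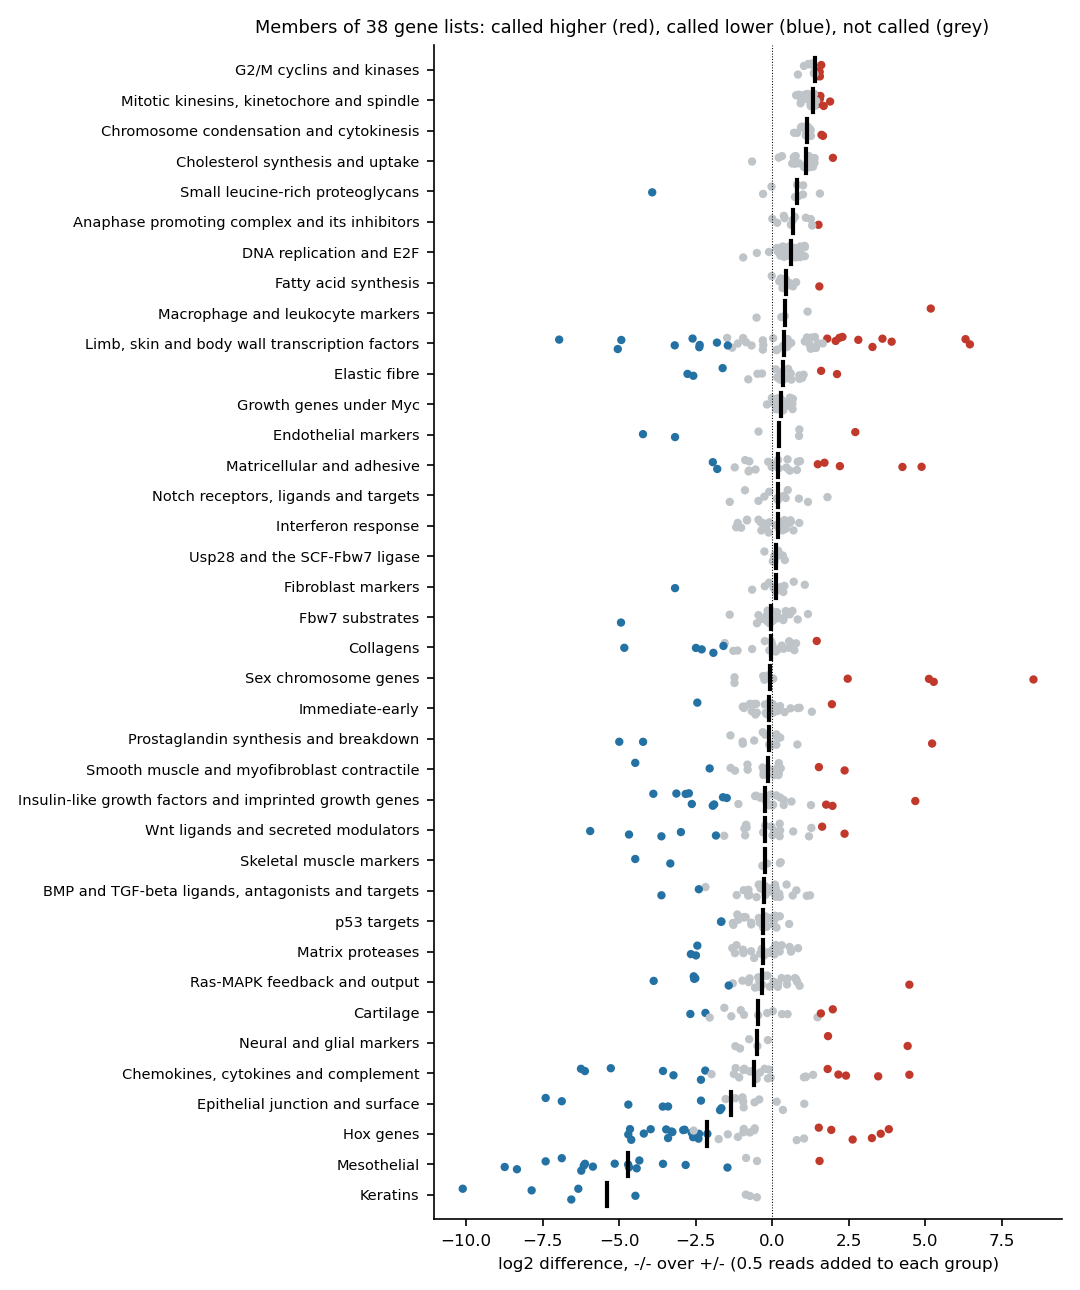
Log2 difference of -/- over +/- for each tested member of 38 gene lists, ordered by the list median (black bars). Red points were called higher in -/-, blue points lower and grey points were not called, and points are spread vertically for sight only. At the top stand 3 of the 4 mitosis lists, with medians up to 1.39, and the mesothelial genes (-4.71) and keratins (-5.40) at the bottom.

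Hox genes, which give cells their address along the body and limb axes, split by cluster and by position. Genes with high numbers sit at the 5′ end of a cluster and act in posterior and distal parts, including the hand and foot plates. Of 33 Hox genes tested, 6 were called higher and 16 lower (18.2% and 48.5%, beside 1.37% and 3.3% of all genes). All 6 higher genes carry numbers from 10 to 13 in the A and D clusters. Hoxd13 (ENSMUSG00000001819, chromosome 2, 74668310 to 74671599) had 157 RPM in -/-, 11.2 RPM in +/- and 158 RPM in +/+ (3.81, SE 0.47, adjusted p = 3.37e-13). Hoxd11 had 42.3 against 4.39 RPM (3.26, SE 0.50), Hoxd12 16.4 against 2.62 RPM (2.63, SE 0.53) and Hoxd10 14.1 against 3.68 RPM (1.93, SE 0.52). In the A cluster, Hoxa13 had 22.2 against 1.86 RPM (3.55, SE 0.55) and Hoxa11 36 against 12.5 RPM (1.52, SE 0.48).

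Every tested gene of the B cluster, 8 of 8, was called lower in -/-, as were 7 of 8 of the C cluster. Hoxb3 had 0.351 RPM in -/-, 10.2 RPM in +/- and 0.725 RPM in +/+ (-4.70, SE 0.83, adjusted p = 1.68e-06). Hoxb4, Hoxb2 and Hoxb9 differed by -4.60, -4.19 and -3.46, and Hoxc6 by -3.29 (2.62 against 26.1 RPM). The C cluster did not follow the split by number: Hoxc10 and Hoxc11 were lower too, at 3.57 against 18.9 RPM and 0.79 against 3.58 RPM. Hoxd3 was the lower gene of the D cluster, at 0.973 against 25.4 RPM (-4.65, SE 0.63). Within the A cluster the values of genes 1 to 7 ran from -1.75 to -0.57 with no call. Antisense genes share 24.8% of the exon bases of Hoxa11, 58.5% of Hoxb2, 63.9% of Hoxb3 and 10.7% of Hoxd3. The labels state no strand, so reads from the shared bases cannot be assigned.

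**Figure D4:**
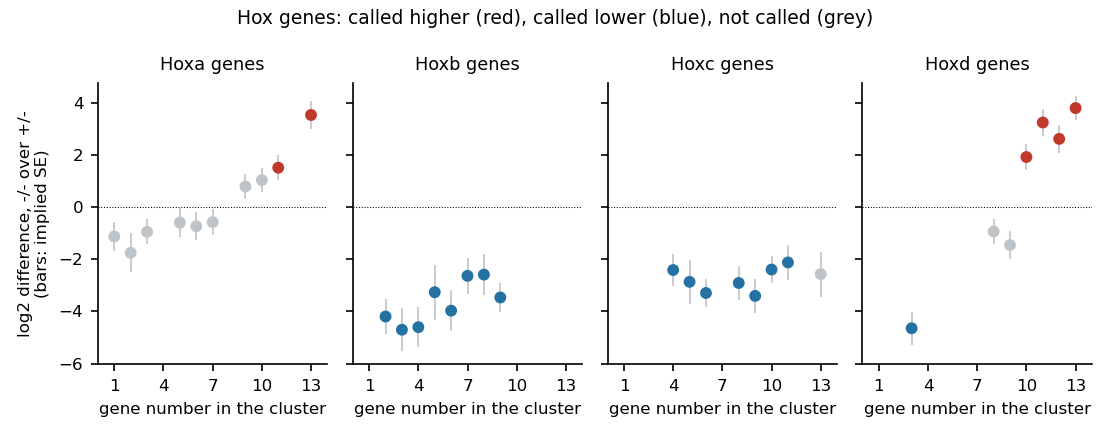
Log2 difference of -/- over +/- (y axis, bars are 1 implied SE) for the 33 Hox genes tested, by cluster (panels) and gene number in the cluster (x axis). Red points were called higher, blue lower and grey not called. The highest values in the A and D clusters are at the highest gene numbers, 3.55 at Hoxa13 and 3.81 at Hoxd13, and all genes tested of the B and C clusters lie below 0.

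Other transcription factors of limb, skin and body wall were called in both directions, 10 higher and 9 lower of 47 (21.3% and 19.1%, beside 1.37% and 3.3% of all genes). Higher in -/- were Lhx2, a limb bud factor (15.9 RPM against 2 reads, counting interval of the log2 difference from 4.75 to 9.68), Tfap2a (18.6 against 1.49 RPM, 3.60, SE 0.57), Msx1, a factor of the distal limb mesenchyme (23.4 against 2.38 RPM, 3.28, SE 0.53), and Lmx1b, which sets dorsal identity in the limb (23.1 against 5.44 RPM, 2.08, SE 0.50). Evx2, the neighbour of Hoxd13, had 8.70 against 0.543 RPM (3.90, SE 0.72). Lower were Hand2 (7.71 against 40.0 RPM, -2.37, SE 0.49), Emx2 (2.97 against 18.2 RPM, -2.60, SE 0.53), Meis1, a factor of the proximal limb (3.51 against 18.5 RPM, -2.38, SE 0.52), and Alx4 (1.16 against 10.9 RPM, -3.18, SE 0.61). For Lmx1b, Msx1 and Hand2 the +/+ levels were 37.7, 52.0 and 8.66 RPM, nearer to -/- than to +/-.

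Of 23 collagen genes 5 were called lower and 1 higher in -/- (21.7% and 4.35%, beside 3.3% and 1.37% of all genes). Among those of basement membranes, Col4a1 had 809 RPM in -/-, 2438 RPM in +/- and 1146 RPM in +/+ (-1.59, SE 0.46, adjusted p = 0.0139), Col4a5 had 105 against 396 RPM (-1.92, SE 0.46) and Col4a6 8.18 against 234 RPM (-4.83, SE 0.48, adjusted p = 1.21e-20). Col4a2, the partner chain of Col4a1, had 795 against 1915 RPM and was not called (-1.27, SE 0.46, adjusted p = 0.0954). Col15a1 had 3.87 against 19.3 RPM. Col7a1, the anchoring fibril collagen under the epidermis, had 23.0 against 129 RPM. The fibrillar collagen genes Col1a1, Col1a2 and Col3a1 were not called, and Col5a3, at 170 against 61.8 RPM (1.46, SE 0.46, adjusted p = 0.0358), was the single collagen called higher, a call that ended when the level filter was dropped or the values were centred. Gm15418, an antisense gene that overlaps the end of Col4a1 on the other strand, had the same log2 difference as Col4a1 (-1.59), and these genes cannot be told apart here.

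In the elastic fibre list 2 of 23 genes were called higher and 3 lower (8.7% and 13%, beside 1.37% and 3.3% of all genes). Mfap5 and Mfap4, microfibril-associated glycoproteins, had 59.8 against 13.7 RPM (2.12, SE 0.47) and 35.3 against 11.6 RPM (1.60, SE 0.48). Lower were Loxl2, a lysyl oxidase that crosslinks collagen and elastin, at 201 against 1368 RPM (-2.77, SE 0.46, adjusted p = 2.02e-07), Efemp1, at 59.8 against 357 RPM (-2.58, SE 0.46), and Ltbp4, at 62.5 against 192 RPM (-1.62, SE 0.46). Eln, elastin, was low in both genotypes, at 20.6 and 14.8 RPM (0.48), beside 217 RPM in +/+. Of 9 small leucine-rich proteoglycans Dcn, decorin, was called lower (11.1%, beside 3.3% of all genes). It had 6.21 RPM in -/- against 94.7 RPM in +/- (-3.92, SE 0.49, adjusted p = 4.22e-13). Others of the family, Fmod (160 against 79.6 RPM) and Ogn (79.1 against 45.0 RPM), were not called and lay the other way.

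Matricellular genes, whose products tune the contact of cells with the matrix, were called 5 times higher and 2 times lower of 24. The shares were 20.8% and 8.33%, beside 1.37% and 3.3% of all genes. Smoc2 had 550 RPM in -/-, 119 RPM in +/- and 493 RPM in +/+ (2.21, SE 0.46, adjusted p = 9.01e-05), Ccn5 had 556 against 198 RPM (1.49, SE 0.46) and Thbs4 37.9 against 1.94 RPM (4.26, SE 0.55). Tnn, tenascin N, had 41.6 against 1.37 RPM (4.88, SE 0.58). Vcan, versican, and Ccn4 were lower, at 60.3 against 231 RPM and 177 against 615 RPM. Timp3, an inhibitor of matrix proteases, had 623 RPM in -/-, 3500 RPM in +/- and 695 RPM in +/+ (-2.49, SE 0.46, adjusted p = 4.94e-06). Timp3 lies inside Syn3 on the opposite strand, and Syn3, a synapsin of neurons, had 624 and 3508 RPM, so the counts of that locus cannot be divided between the genes. The collagenase gene Mmp13 and Mmp10, stromelysin 2, were lower at 1.67 against 9.27 RPM and 0.613 against 4.10 RPM.

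Cartilage and contractile genes were called in both directions. Comp, a cartilage matrix protein, had 19.8 against 4.99 RPM (1.98, SE 0.50) and Col10a1 109 against 36.1 RPM (1.59, SE 0.46), and Cilp2 and Col11a2 were lower at 0.529 against 3.61 RPM and 1.41 against 6.55 RPM. Col10a1 lies inside Nt5dc1, whose levels were 129 and 64.1 RPM. Des, desmin, the intermediate filament of muscle, had 4.34 RPM in -/-, 97.4 RPM in +/- and 0.65 RPM in +/+ (-4.47, SE 0.50, adjusted p = 3.58e-16), and Actg2, smooth muscle gamma actin, 68.0 against 280 RPM (-2.04, SE 0.46). The other smooth muscle actin gene, Acta2, was not called at 3698 and 4477 RPM. Pcp4l1 and Synm were higher, and the call of Synm (adjusted p = 0.0437) ended with an exact negative binomial test.

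Of 29 feedback and output genes of the Ras and MAP kinase pathway, 5 were called lower in -/- and 1, Il1rl1, higher, in cells that carried no exogenous Ras. The shares were 17.2% lower and 3.45% higher, beside 3.3% and 1.37% of all genes. Dusp4 and Dusp6, phosphatases that ERK induces and that switch it off, had 3.20 against 47.4 RPM (-3.87, SE 0.52, adjusted p = 2.15e-11) and 17.3 against 98.8 RPM (-2.51, SE 0.47, adjusted p = 8.38e-06). Spry1, an inhibitor of receptor tyrosine kinase signals, had 7.95 against 46.7 RPM (-2.55, SE 0.48). For all 3 the +/+ levels were low as well, at 2.02, 15.1 and 5.78 RPM. Epha4 was lower at 17.2 against 102 RPM, and Vegfa at 76.2 against 204 RPM (-1.42, SE 0.46, adjusted p = 0.0443), a call that ended with the exact test. Of 29 immediate-early genes, the first to be transcribed after growth signals, Arc was higher (49.6 against 12.8 RPM) and Nr4a3 lower (0.884 against 5.01 RPM). Each is 3.45% of the list, beside 1.37% called higher and 3.3% lower of all genes.

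Secreted signals differed between the genotypes. Among 23 Wnt ligands and modulators 2 were called higher and 5 lower (8.7% and 21.7%, beside 1.37% and 3.3% of all genes). Sfrp2, a secreted Wnt binder, had 83.6 RPM in -/- and 16.2 RPM in +/- (2.37, SE 0.47), with 1009 RPM in +/+, and the antagonist gene Dkk2 45.7 against 14.7 RPM. The ligands Wnt11 (3.96 against 49.2 RPM, -3.62, SE 0.51) and Wnt9a (4.03 against 32.2 RPM) and the agonist Rspo1 (1.50 against 39.4 RPM) were lower. So were Sfrp4 (-5.95, SE 1.27) and Sfrp1, secreted Wnt binders like Sfrp2, so binders and antagonists went both ways. Of 30 genes of BMP and TGF-beta signals Gdf6 (15.3 against 189 RPM, -3.62, SE 0.47) and Bmp6 were called, both lower. That is 6.67% called lower and none higher, beside 3.3% and 1.37% of all genes.

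Insulin-like growth factor genes went opposite ways. In their list with imprinted growth genes, 3 of 30 were called higher and 9 lower (10% and 30%, beside 1.37% and 3.3% of all genes). Igf2, the paternally expressed fetal growth factor, had 237 RPM in -/-, 69.8 RPM in +/- and 62.3 RPM in +/+ (1.76, SE 0.46, adjusted p = 0.00457), and was one of the genes whose -/- level stood apart from both others. Igf1 had 2.80 against 41.9 RPM (-3.88, SE 0.53). The binding protein genes Igfbp2, Igfbp3, Igfbp6 and Igfbp7 were called lower, with log2 differences from -2.83 to -1.48. Among imprinted genes, Mest (95.5 against 24.3 RPM) and Dio3 (7.05 RPM against 3 reads) were higher, and Peg3 (18.7 against 164 RPM, -3.13, SE 0.47), Nnat, Zim1 and Cdkn1c were lower, so no single direction held. Mest overlaps Copg2 on the other strand.

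Of 17 genes of prostaglandin metabolism, 2 that act in synthesis were called lower and 1 that acts in breakdown higher. The shares were 11.8% and 5.88%, beside 3.3% and 1.37% of all genes. Ptgs1, cyclooxygenase 1, had 8.96 RPM in -/- and 168 RPM in +/- (-4.22, SE 0.48, adjusted p = 9.07e-16). Ptgis, prostacyclin synthase, had 7.90 against 254 RPM (-5.00, SE 0.48, adjusted p = 5.5e-22). Hpgd, the enzyme that inactivates prostaglandins, had 27.6 RPM in -/- and 0.698 RPM in +/- (5.23, SE 0.66, adjusted p = 1.37e-12). The other 14 genes of that list were not called.

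Chemokines and complement genes were called 5 times higher and 7 times lower of 30 (16.7% and 23.3%, beside 1.37% and 3.3% of all genes). The neutrophil chemokines Cxcl5 (33.2 against 2.97 RPM, 3.46, SE 0.52), Cxcl1 (4.06 against 0.73 RPM) and Cxcl15 were higher, while Cxcl12 had 163 RPM in -/-, 743 RPM in +/- and 698 RPM in +/+ (-2.19, SE 0.46, adjusted p = 0.000114). Of the complement genes, Serping1, the C1 inhibitor, was lower at 2.49 against 23.6 RPM, and C3 at 1.59 against 19.3 RPM. Il6 had 1 read in -/- against 5.05 RPM in +/-. Of 26 interferon-response genes none was called and 1 was at an unadjusted p under 0.05, with values from -1.18 to 0.89.

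Lists of other cell types held defining markers at or near 0 beside some members with clear levels. The summed level of 13 macrophage and leukocyte genes was 36.3 RPM in -/- and 21.5 RPM in +/-, with Aif1 at 0 in both and Ptprc at 0.264 and 0.0808 RPM. Of the 5 tested, Lyz2 was called higher (20%, beside 1.37% of all genes), at 4.32 RPM against 1 read. The 12 endothelial genes summed to 54.5 and 94.2 RPM, of which Cd34 made 6.61 and 60.0 RPM, while Cldn5 was at 0 in both and Pecam1 and Cdh5 were under 1 RPM. Of the 6 endothelial genes tested Erg was called higher (9.17 against 1.36 RPM, 2.72, SE 0.59), and Cd34 and Esam (1 read against 2.42 RPM) lower. The shares were 16.7% and 33.3%, beside 1.37% and 3.3% of all genes. The 16 skeletal muscle genes summed to 798 and 964 RPM, of which Tnnc1, a troponin, made 649 and 725 RPM and Acta1 122 and 101 RPM. The muscle regulators Myog, Myf5 and Myf6 were at 0 in both genotypes, beside the calls of Des and Tnnt2. Those 2, both lower, are 33.3% of the 6 muscle genes tested, beside 3.3% of all genes. The 16 neural and glial genes summed to 371 and 578 RPM, with Ncam1 at 122 and 280 RPM and Nes at 68.2 and 141 RPM, neither called. Sox10, of neural crest and glia, was at 0 in both. Of 7 neural genes tested 2, Map2 (85.5 against 24.1 RPM) and Sox2 (2.54 RPM against 1 read), were called higher (28.6%, beside 1.37% of all genes).

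The genotypes also differed in sex chromosome RNA. Eif2s3y (chromosome Y, 1010543 to 1028847) had 14.9 RPM in -/- and no read in +/-, at least 61.8-fold higher against a floor of 3 reads summed over the group. Kdm5d and Uty had 10.8 and 6.96 RPM in -/- and 3 and 2 reads in +/-, and Ddx3y had 43.8 against 7.89 RPM (2.47, SE 0.48). All 4 Y genes tested were higher in -/-, and their +/+ levels were close to those of -/-, at 18.7 RPM for Eif2s3y. Xist, the RNA that coats the inactive X, had 126 RPM in -/-, 296 RPM in +/- and 89.6 RPM in +/+ (-1.23, SE 0.46, adjusted p = 0.114). Xist and its antisense gene Tsix had the same values to 3 digits and cannot be told apart. Apart from Ddx3y the Y genes were thus nearly silent in +/- and not in the other genotypes. In -/- and +/+ the Y RNA stood beside reads of the Xist and Tsix locus, so these values do not assign a single sex to those groups. For every gene above, the embryos' sex and their Usp28 genotype cannot be told apart.

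The contrast of -/- with +/- was measured again in a second set of cells that also carried activated HRas and a GFP vector, with 2 libraries per genotype. There 3946 of 16107 genes (24.5%) were called, 2056 higher (12.8%) and 1890 lower (11.7%). The labels do not say whether the Ras cells descend from the same immortalized cultures, and if they do the sets are not independent samples of the genotypes. Of the 794 genes called in immortalized cells 562 were tested in both sets, and 232 lay under the level filter or were missing from the Ras table. Of these 562, 426 were called in the Ras set, which is 75.8% of them and 11.6% of the 3676 Ras calls among genes tested in both, beside 24.0% of all genes tested in both. The direction was the same for 395 of the 426. Of 177 genes higher in immortalized -/- cells 66.1% were also called higher with Ras (12.5% of all genes tested in both), and of 385 lower genes 72.2% were also called lower (11.5%).

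In the Ras set 7 of 8 keratins tested were called lower and none higher. Of 18 mesothelial genes 13 were lower and 2 higher there, and of 22 Hox genes 14 were lower and 7 higher. Of all genes tested in the Ras set, 11.7% were called lower and 12.8% higher. The size often differed: the difference between the sets was called for 3 of the 8 keratins, 8 of the 18 mesothelial genes and 11 of the 22 Hox genes. Over all genes tested in both sets that share was 7.74%. Krt14 had 0.215 RPM in Ras -/- and 316 RPM in Ras +/-, Upk3b 0.717 and 677 RPM, and Msln 5.09 and 209 RPM. Hoxd13 had 201 RPM in Ras -/- and 1 read in Ras +/-. Among the Y genes Eif2s3y was at 22.4 RPM and 2 reads. Mitosis genes had a smaller median with Ras, 0.42 beside 1.26, and 13 of 68 were called higher there, beside 12.8% of all genes. The difference between the sets was, however, called for none of the 68. Genes such as Coch, Gjb2 and Hpgd had at most 1 read in either genotype of the Ras set and were not tested there.

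A test of the difference between the sets called 1186 of 15332 genes (7.74%), including 213 of the 562 called in immortalized cells. In all, 31 genes were called in opposite directions, 10 of them higher in immortalized -/- and 21 lower. Igf2 had 237 against 69.8 RPM in immortalized cells and 0.43 against 1.59 RPM with Ras. Pcp4l1 had 11.2 against 2.14 RPM and then 0.43 against 18.2 RPM. Cxcl1 had 4.06 against 0.73 RPM in immortalized cells, and with Ras it had no read in -/- and 84.0 RPM in +/-. Actg2 had 68.0 against 280 RPM and then 3.80 against 1.36 RPM. Interferon-response genes, with no call in immortalized cells, were called higher in 32 of 36 in Ras -/- cells, beside 12.8% of all genes tested there. For 20 of the 26 tested in both sets the difference was called, beside 7.74% of all genes tested in both.

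**Figure D5:**
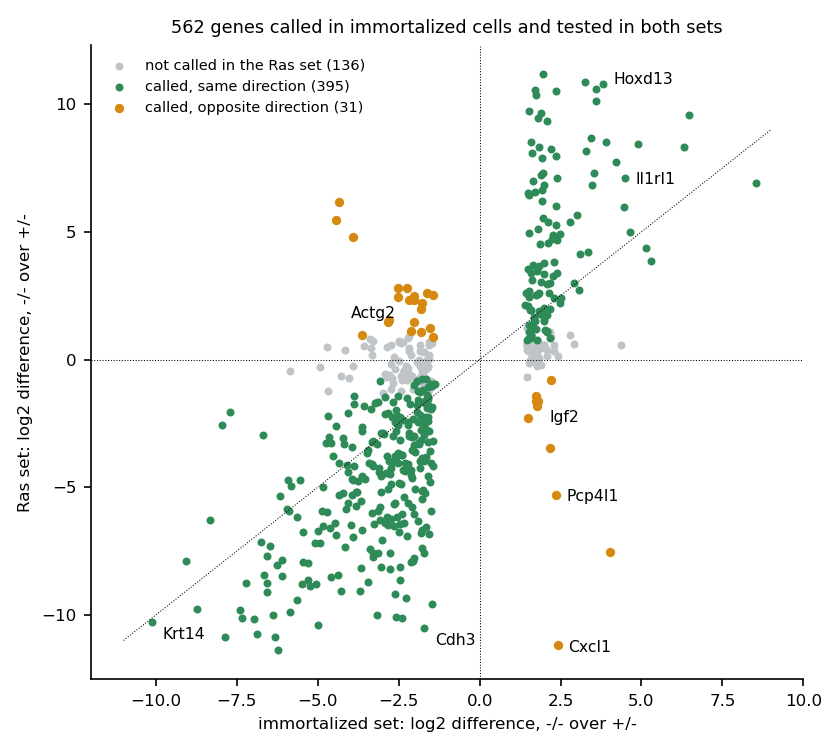
Log2 difference of -/- over +/- in the immortalized set (x axis) and in the Ras set (y axis) for the 562 genes called in immortalized cells and tested in both. Green points were also called in the Ras set in the same direction (395), orange points in the opposite direction (31), grey points were not called there (136), and the diagonal marks equal differences. Many values are further from 0 with Ras than without it, such as Hoxd13 and Cdh3.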

How the data were processed

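Poly(A) RNA was prepared with either of 2 library kits, and the labels do not say which library had which. Per the submitters' processing notes, the authors used CASAVA, FastQC, Bowtie 0.12.8 (mm9) and edgeR. The deposited table of the immortalized set gives, per the file headers, a log2 concentration, a log2 ratio (with +/+ on top) and a p-value for each comparison with +/+. It holds 37576 distinct gene IDs, of which 86.9% matched a symbol in the GRCm38 annotation used here (GENCODE). Coordinates are of that build and not of mm9.

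Each group's level in RPM was rebuilt from its own comparison as 2 to the power of the log2 concentration minus 0.5 times the log2 ratio, times 1000000. Low levels lie on steps of 1 read, which gave the summed depth. Of values under 20 reads, 97.8% in -/- and 81.0% in +/- lay within 0.1 of a whole number, and 1 read was 0.0879 and 0.0805 RPM. A common dispersion per comparison was fitted to the deposited p-values. The Wald test gave each group the sum of both dispersions over 3 libraries, which bounds the error from above at a common dispersion only, so genes that vary more have errors that are too small. The Ras table was treated likewise (13.22 and 13.89 M reads), and the difference of the 2 contrasts was tested with variances added. Counting intervals (95%, exact) and floors (3 reads) cover counting error only. To find the group nearer to +/+, 0.1 RPM was added. Scripts ran in Python 3.11.15 with scipy 1.17.1 and were tested on simulated data.

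Named genes are Usp28, Usp25 and Fbxw7, the 12 largest called differences per direction at 10 RPM or more, the 5 called genes with most reads per direction, and up to 6 called members per direction of each of 38 lists (2 where none was called, and all sex chromosome genes). Other genes named were chosen after their values were seen. The comparison, its lists and the test were chosen with earlier results of these data known. Promoters are from RefSeq (GRCm38.p6). Alternatives were other dispersions, thresholds, level filters, centring, added reads, deposited ratios and an exact test. Some listed genes are not reported here by name.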

Additional observations from a re-analysis of the deposited data

Results flagged for a closer look

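The difference between the Ras set and the immortalized set in the contrast of -/- with +/- was called for 53 of the named genes, and for 1186 (7.74%) of 15332 genes (adjusted p under 0.05, approximate Wald test of the difference itself, 2 libraries a group with Ras and 3 without). The values that follow are the log2 difference with Ras minus that without it. Where a group had few or no reads the value depends on the 0.5 reads added and is no bound, as for Cxcl1, Hoxd11, Emx2, Tfap2a, Hoxa11 and Hoxd13.

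Among patterning genes the values were 6.98 for Hoxd13, 7.61 for Hoxd11, 5.94 for Hoxd10, 3.74 for Hoxa13, 8.22 for Hoxa11, 6.97 for Tfap2a, 3.52 for Runx3, 3.06 for Meis1 and -6.58 for Emx2. The values of the 5 Hox genes and Tfap2a enlarge a difference of the same sign, while Meis1 was lower in immortalized -/- cells and not called with Ras. Among mesothelial and epithelial genes they were -2.41 for Upk3b, -3.88 for Upk1b, -4.54 for Krt18, -1.93 for Krt7, -3.66 for Igfbp6, 2.45 for Rspo1, 4.10 for C3 and 4.20 for Itgb4.

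Among matrix and contractile genes they were -4.79 for Loxl2, -7.51 for Efemp1, 3.26 for Mfap5, 3.68 for Dcn, 6.04 for Smoc2, 5.03 for Ccn5, 3.57 for Tnn, 6.91 for Col10a1, 2.51 for Col11a2, -2.16 for Col5a3, 2.45 for Col7a1, 2.74 for Mmp10, 3.20 for Timp3, 3.19 for Syn3, 3.45 for Synm, 3.49 for Actg2 and -7.65 for Pcp4l1. Among secreted signals and their receptors they were -13.60 for Cxcl1, 3.38 for Cxcl5, 2.63 for Cxcl12, -3.79 for Ppbp, 2.62 for Il1rl1, 3.63 for Sfrp2, 6.45 for Dkk2, -3.57 for Igf2, 2.16 for Igf1 and -5.39 for Ptgis. The rest were 3.72 for Akap5, 7.23 for Aqp1, -1.60 for Gja1, -6.85 for Cd34, -3.59 for Epha4, 2.54 for Nnat, 4.07 for the interferon-induced sensor Ifih1, -5.44 for Xist and -5.09 for Tsix. Xist had 0.215 RPM in Ras -/- and 25.5 RPM in Ras +/-, so the sets also differ in this marker of sex.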

How the results depend on the processing

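With each comparison's own dispersion, 1476 genes were called in immortalized cells (582 higher, 894 lower), 2901 were lower in the Ras set and the difference between the sets was called for 2171. With the dispersion doubled these were 377 (67 and 310), 2427 in the Ras set (1267 and 1160) and 631. At an adjusted p under 0.01, 136 genes were higher in immortalized cells, and at 5 RPM or more 372 were lower. Centring on the median gene turned Ddx3x to -0.0290 and Fbxw7 to -0.0419, neither called before or after. In the 100 bases before the start alone, a shorter window, the CHR core was in 21% of mitosis promoters, beside 6.13% of all. Of 176 named genes, 60 calls ended with the dispersion doubled, 34 at the stricter threshold, 7 with no level filter (Ccnb1, Col5a3, Hmmr, Kif2c, Melk, Synm and Vegfa), 5 of these when centred (not Melk or Vegfa) and 2 (Synm and Vegfa) with the exact test, and none with 2 reads added or with the deposited ratios. No paired analysis was possible because the tables hold no values for single libraries. For the same reason no replicate could be left out, and a library that stands apart could not be seen.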

Other observations

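The difference between the genotypes was spread over all chromosomes. By chromosome, 3.04% (X) to 7.27% (chromosome 3) of the genes tested were called, apart from the Y, where all 4 genes tested were. At 10 RPM or more the median log2 difference of a chromosome ran from 0.00 (chromosome 15) to 0.18 (X), and these values were not tested.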
